A study of Mus musculus with 26 samples.

Results

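The genes described here are 10 that encode islet hormones and granins, chosen by symbol: Ins1, Ins2, Gcg, Sst, Ppy, Iapp, Pyy, Ghrl, Chga and Chgb. They were read in 12 tumours of KPC mice, where they are 10 of 16322 genes with a value. KPC is the only strain or genotype the labels give. As background, KPC mice are an engineered model of pancreatic ductal adenocarcinoma in which Cre is active from the Pdx1 promoter in the developing pancreas, so that islet cells can carry the recombined alleles too. Of the tumours, 7 came from mice given vehicle and 5 from mice given GS9820, a compound that blocks p110δ, a catalytic form of the lipid kinase PI3K, with 14 days given for treated mice and no day given for vehicle mice; ages are not given. RNA came from whole pieces of tumour. The series also holds 14 libraries of myeloid cells sorted from spleen, and 0 of the 10 genes were listed among their 14131 genes.

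In a healthy pancreas the islets are clusters of endocrine cells scattered through the enzyme-secreting acinar tissue. Beta cells make insulin and amylin, alpha cells glucagon, delta cells somatostatin, PP cells pancreatic polypeptide and, mostly before birth, epsilon cells ghrelin. All of them store their hormones in dense-core granules, whose matrix is built from granins such as chromogranin A and chromogranin B. Hormone precursors are cut by prohormone convertases inside these granules. In a whole tumour, fewer cells of a type and less RNA per cell cannot be told apart.

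The mouse has a pair of insulin genes, shown first because their reads can be confused. The coding sequences are taken from the GENCODE M21 transcripts (GRCm38), over the first 300 aligned positions from the start codon, with capitals at bases that differ or have no partner in the other gene. Ins1 lies on the plus strand of chromosome 19 (coding part chr19:52264624-52264950) and Ins2 on the minus strand of chromosome 7 (coding part chr7:142678713-142679533, introns left out).
Ins1: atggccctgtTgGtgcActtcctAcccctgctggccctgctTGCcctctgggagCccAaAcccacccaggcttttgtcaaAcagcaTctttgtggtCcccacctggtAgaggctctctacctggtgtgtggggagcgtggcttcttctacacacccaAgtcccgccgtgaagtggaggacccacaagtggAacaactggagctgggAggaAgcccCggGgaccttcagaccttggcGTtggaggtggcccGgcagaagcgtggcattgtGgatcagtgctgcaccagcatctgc
Ins2: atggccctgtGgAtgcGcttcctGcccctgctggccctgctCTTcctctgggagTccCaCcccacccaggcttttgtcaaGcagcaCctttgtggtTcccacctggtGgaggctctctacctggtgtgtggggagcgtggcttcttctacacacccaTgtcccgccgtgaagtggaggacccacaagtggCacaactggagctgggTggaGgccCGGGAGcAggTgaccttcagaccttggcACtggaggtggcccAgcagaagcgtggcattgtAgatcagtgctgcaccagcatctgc
Of 333 aligned positions over the whole coding sequences 302 were identical (90.7%), and 6 bases of Ins2 faced a gap. The longest run without a difference was 56 bases, shorter than the 100-base reads. How reads that match both genes were shared out is not given in the sources used here, so the split between Ins1 and Ins2 is uncertain.

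Promoters of 5 members are shown because the genes, as described below, were high and low in much the same tumours, Ghrl less so among vehicle tumours. Each runs from 250 bases before to 50 after the transcription start in RefSeq (GRCm38.p6), which matched 9 of the 10 members. Capitals mark matches on either strand to TGACGTCA (the cAMP response element), CATCTG (an E-box, read CAGATG on the other strand) or TATAAA (the TATA box, read TTTATA on the other strand). The windows are chr19:52264047-52264346 on the plus strand for Ins1, chr2:62483604-62483903 on the minus strand for Gcg, chr16:23890795-23891094 on the minus strand for Sst, chr2:132781392-132781691 on the plus strand for Chgb and chr6:113719862-113720161 on the minus strand for Ghrl.
Ins1: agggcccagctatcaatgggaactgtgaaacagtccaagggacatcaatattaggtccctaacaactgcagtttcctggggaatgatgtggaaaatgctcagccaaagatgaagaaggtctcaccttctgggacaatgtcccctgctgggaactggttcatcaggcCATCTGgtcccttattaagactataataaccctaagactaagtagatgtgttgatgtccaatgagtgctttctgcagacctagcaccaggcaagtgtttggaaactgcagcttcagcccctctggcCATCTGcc
Gcg: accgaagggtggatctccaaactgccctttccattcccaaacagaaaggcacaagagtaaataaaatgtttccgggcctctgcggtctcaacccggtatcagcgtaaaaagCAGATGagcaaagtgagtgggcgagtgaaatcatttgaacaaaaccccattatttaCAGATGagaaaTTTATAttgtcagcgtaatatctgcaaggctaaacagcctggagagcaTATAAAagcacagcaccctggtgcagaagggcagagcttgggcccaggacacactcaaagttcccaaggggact
Sst: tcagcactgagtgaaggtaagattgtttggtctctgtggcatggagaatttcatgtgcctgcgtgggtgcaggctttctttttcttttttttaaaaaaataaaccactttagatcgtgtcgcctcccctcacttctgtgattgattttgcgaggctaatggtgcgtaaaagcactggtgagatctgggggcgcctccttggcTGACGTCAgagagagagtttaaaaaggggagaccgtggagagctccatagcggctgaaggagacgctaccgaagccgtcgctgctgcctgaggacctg
Chgb: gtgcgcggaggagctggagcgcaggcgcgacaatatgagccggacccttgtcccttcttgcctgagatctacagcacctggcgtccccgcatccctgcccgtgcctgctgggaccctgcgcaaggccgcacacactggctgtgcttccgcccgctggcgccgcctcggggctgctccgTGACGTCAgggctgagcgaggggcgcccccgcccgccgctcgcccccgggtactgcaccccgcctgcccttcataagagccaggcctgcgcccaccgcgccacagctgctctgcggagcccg
Ghrl: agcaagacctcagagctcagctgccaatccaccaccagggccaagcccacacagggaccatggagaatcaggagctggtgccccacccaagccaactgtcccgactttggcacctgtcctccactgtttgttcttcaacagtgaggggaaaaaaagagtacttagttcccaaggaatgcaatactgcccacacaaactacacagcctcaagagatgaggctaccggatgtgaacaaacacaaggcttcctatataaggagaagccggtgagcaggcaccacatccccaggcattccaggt
The cAMP response element stood in the windows of Sst, with its first base at -48 from the start, and Chgb, at -72, and in 1.79% of all 32851 windows. E-box letters stood at -84 and 42 in Ins1 and at -139 and -83 in Gcg. They were also found in windows of Iapp and in another window of Ghrl, and in 17.2% of all windows. TATA box letters stood at -72 and -24 in Gcg, and also in Ppy and Chga, and in 13.6% of all windows. The letters TAATTA, a core bound by homeodomain factors, were in 0 of the 9 members' windows and in 5.29% of all windows. The printed Ghrl window, the most upstream of those listed for that gene, held no match. Each match is a description of letters and not a tested site.

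Values are the log2 expression values that the authors deposited under the name log2 RPKM. Every tumour library has the same highest value, 15.27, and the same median, 4.80, so read depth is unknown and no counting error can be given. All 15 genes of a ductal and carcinoma list were measured, led by the keratin genes Krt18 (vehicle tumours, 10.9 ± 1.13, SD, n = 7) and Krt8. Having a value does not identify the tissue. All 23 genes of an acinar list were measured too, with the amylase gene Amy2a5 at 11.97 ± 2.88 (SD, n = 7) in vehicle tumours. Several libraries stood apart in markers of tissue. Vehicle tumour 1 had a ductal list mean of 3.85 against 6.67 to 8.53 in the other tumours, and treated tumour 3 a hepatocyte list mean of 11.6. Vehicle tumour 4 had a hepatocyte list mean of 5.53, the highest of the vehicle tumours, and treated tumour 1 an intestinal list mean of 10.3, where the mature enterocyte gene Fabp2 stood at 11.5. The labels number the tumours and do not say that each came from its own mouse, so SDs and p-values measure the spread between these samples.

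All 10 genes had a higher mean in GS9820-treated than in vehicle tumours, by 3.86 to 5.57 on the log2 scale. Members were chosen with this contrast in view, so these values are a description without a test. The median difference of the 10 was 4.71, and that of all 16296 genes tested was -0.06. With limma over all genes, 5 of 10 (Ppy, Pyy, Ghrl, Chga and Chgb) were called higher at an adjusted p under 0.05, where 0.878% of all genes were; in either direction 2.2% of all genes were called. The groups overlapped for every one of them: 0 of 10 had all treated above all vehicle tumours, where 0.951% of genes did. The overlap came from vehicle tumour 6, which stood above treated tumour 3 in 10 of 10 genes, and in Gcg, Sst and Chgb also from vehicle tumour 7.

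**Figure D1:**
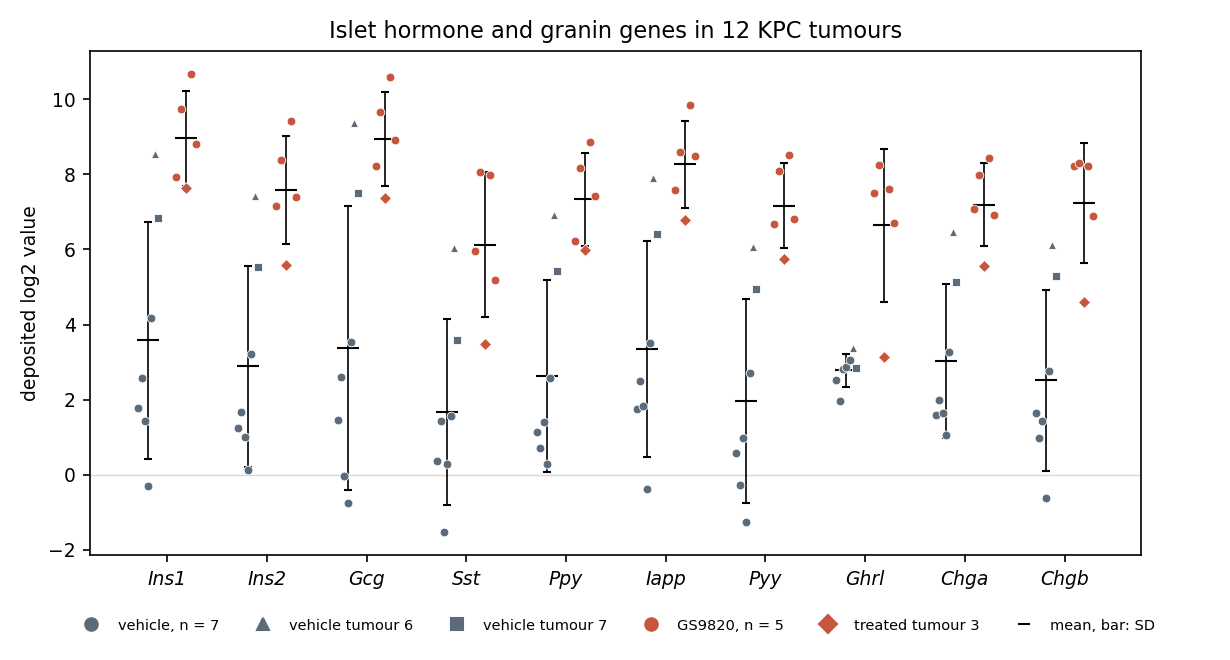
Deposited log2 value (vertical axis) of each of the 10 genes in 7 vehicle (grey) and 5 GS9820-treated (red) tumours, with group mean and SD. Vehicle tumours 6 and 7 and treated tumour 3 have their own symbols; for 9 genes vehicle tumours 6 and 7 sit far above the other vehicle tumours, whereas all vehicle values of Ghrl lie between 1.98 and 3.38.

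Among the beta cell hormones, Ins1 (chr19:52264297-52265476, plus strand) encodes insulin 1, a product of a gene copy found in rodents. Its deposited log2 value was 1.79, 2.59, 1.43, -0.30, 4.17, 8.53 and 6.84 in vehicle tumours 1 to 7 and 7.93, 9.75, 7.63, 10.68 and 8.81 in treated tumours 1 to 5. The vehicle tumours thus ran from near the bottom of the distribution to its upper ranks. Ins1 was the 16123rd most abundant of 16322 genes in vehicle tumour 4 and the 518th in vehicle tumour 6, and in treated tumour 4 it was the 109th. The treated mean of 8.96 ± 1.27 (SD, n = 5) was 5.38 ± 1.33 (SE) above the vehicle mean of 3.58 ± 3.15 (SD, n = 7).

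Ins2 (chr7:142678656-142743381, minus strand), the insulin gene that mice share with other mammals, ran from 0.12 to 7.42 in vehicle tumours, with a median of 1.67. In treated tumours 1 to 5 it stood at 7.15, 8.38, 5.59, 9.41 and 7.39. Only vehicle tumour 6 reached the treated range. The treated mean was 4.70 ± 1.17 (SE) above the vehicle mean of 2.89 ± 2.68 (SD, n = 7). Ins1 was above Ins2 in 11 of 12 tumours, and by 1.38 on average in the treated ones.

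Iapp (chr6:142298423-142303961, plus strand) encodes amylin, which is released together with insulin and forms the islet amyloid of some species. It ran from -0.39 to 7.89 in vehicle tumours, with a median of 2.49, and stood at 7.60, 8.60, 6.80, 9.84 and 8.48 in treated tumours 1 to 5. Vehicle tumour 6 again lay inside the treated range. The difference was 4.91 ± 1.21 (SE), from 3.36 ± 2.88 (SD, n = 7) to 8.26 ± 1.15 (SD, n = 5). Iapp lies wholly within Slco1a5, a gene on the opposite strand; the library kit was stranded, and whether counting used the strand is not given in the sources used here. Slco1a5 ran from -3.86 to 2.44 and did not follow Iapp over the 12 tumours with group means removed (r = 0.08, a description).

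Gcg (chr2:62474530-62483650, minus strand) encodes proglucagon, cut to glucagon in alpha cells and to GLP-1 in intestinal L cells. It had the widest range of the 10 genes. Values were 1.46, 2.60, -0.03, -0.75, 3.55, 9.37 and 7.51 in vehicle tumours 1 to 7 and 8.22, 9.66, 7.37, 10.60 and 8.91 in treated tumours 1 to 5. Vehicle tumour 6 exceeded 3 treated tumours and vehicle tumour 7 exceeded treated tumour 3. The vehicle mean was 3.38 ± 3.78 (SD, n = 7), and the treated mean of 8.95 ± 1.25 (SD, n = 5) was 5.57 ± 1.57 (SE) above it.

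Sst (chr16:23889573-23890958, minus strand) encodes somatostatin, which restrains insulin and glucagon release. It stood between -1.53 and 6.05 in vehicle tumours, with a median of 1.43, and at 5.95, 8.06, 3.49, 7.98 and 5.19 in treated tumours 1 to 5. Vehicle tumour 6 was above 3 of the treated tumours, and vehicle tumour 7, at 3.60, was above treated tumour 3. With a treated mean of 6.13 ± 1.94 (SD, n = 5), the difference was 4.45 ± 1.18 (SE).

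Ppy and Pyy encode pancreatic polypeptide and peptide YY, related peptides of the neuropeptide Y family. Ppy (chr11:102099930-102101319, minus strand) and Pyy (chr11:102106676-102107832, minus strand) lie 5356 bases apart with 0 annotated genes between them. Ppy stood at 6.23, 8.17, 5.97, 8.87 and 7.42 in treated tumours 1 to 5, and from 0.29 to 6.93 in vehicle tumours, with a median of 1.40. Pyy stood at 6.67, 8.09, 5.74, 8.52 and 6.81 in the same treated tumours, and from -1.27 to 6.07 in vehicle tumours, with a median of 0.97. For both genes vehicle tumour 6 was the one vehicle tumour inside the treated range. Differences were 4.69 ± 1.10 (SE) for Ppy and 5.20 ± 1.16 (SE) for Pyy, from vehicle means of 2.64 ± 2.56 and 1.96 ± 2.73 (SD, n = 7).

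Ghrl (chr6:113716119-113719880, minus strand) encodes ghrelin, a hunger hormone made mainly in the stomach and in epsilon cells. Among vehicle tumours its values were unlike those of the others. Values were 2.54, 1.98, 2.81, 2.86, 3.05, 3.38 and 2.84 in vehicle tumours 1 to 7 and 7.52, 8.25, 3.13, 7.61 and 6.70 in treated tumours 1 to 5. Vehicle tumours 6 and 7, where the other hormones were high, did not stand out, and treated tumour 3 lay inside the vehicle range, while the other 4 treated tumours lay above every vehicle tumour. The vehicle SD was 0.44 (mean 2.78, n = 7) against 2.06 to 3.78 for the other 9 genes, and the treated mean was 6.64 ± 2.04 (SD, n = 5), a difference of 3.86 ± 0.70 (SE). The spread of Ghrl among vehicle tumours was ordinary, at the 48.2 percentile of all genes, and that of each of the other 9 was at or above the 97.9 percentile. Ghrl overlaps the opposite-strand gene Gm26982 by 3 bases; that gene ran from 2.83 to 3.86, with r = -0.20 against Ghrl over the 12 tumours, group means removed.

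Of the granins, Chga (chr12:102554969-102565028, plus strand), for chromogranin A, stood at 7.07, 7.98, 5.57, 8.43 and 6.92 in treated tumours 1 to 5 and from 1.05 to 6.48 in vehicle tumours, with a median of 1.99. Chgb (chr2:132781278-132795079, plus strand), for chromogranin B, stood at 8.22, 8.30, 4.596, 8.21 and 6.90 in treated tumours and from -0.61 to 6.13 in vehicle tumours, with a median of 1.65. Vehicle tumour 6 was inside the treated range of both, and vehicle tumour 7, at 5.30, also exceeded treated tumour 3 in Chgb. The difference was 4.17 ± 0.90 (SE) for Chga and 4.73 ± 1.10 (SE) for Chgb, from vehicle means of 3.02 ± 2.06 and 2.52 ± 2.41 (SD, n = 7).

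The order of the tumours was much alike for the 9 genes other than Ghrl. Vehicle tumour 6 was the highest vehicle tumour in 10 of 10 genes, and vehicle tumours 6 and 7 were the highest pair in 9 of 10, Ghrl being the exception. Vehicle tumour 5 was the third in those 9 genes, and vehicle tumour 4 was the lowest of all in 8 of 10. Among treated tumours, treated tumour 3 was the lowest in 10 of 10 genes. The highest was treated tumour 4 in 7 genes and treated tumour 2 in the other 3 (Sst, Ghrl and Chgb).

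**Figure D2:**
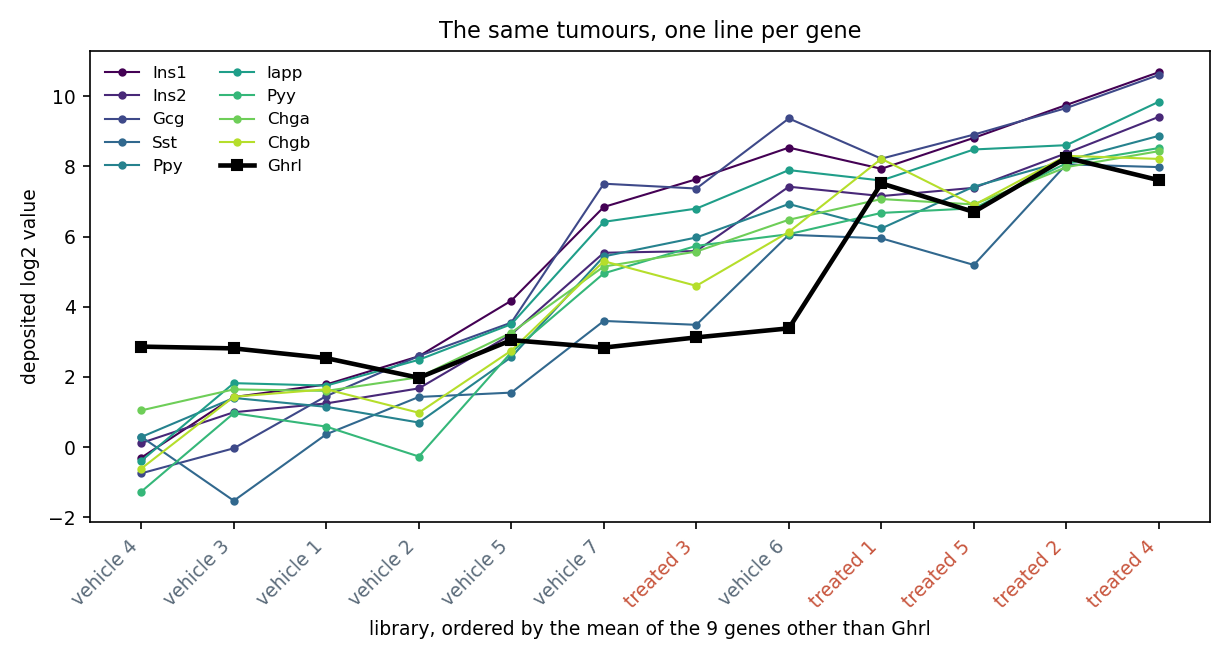
Deposited log2 value (vertical axis) of each gene in the 12 tumours (horizontal axis), ordered by the mean of the 9 genes other than Ghrl, with one line per gene. The mean of the 9 lines rises from vehicle tumour 4 to treated tumour 4 because the tumours are ordered by it. Single lines fall at some steps, such as Gcg from 9.37 in vehicle tumour 6 to 8.22 in treated tumour 1. Ghrl (black) stays between 1.98 and 3.38 in 7 vehicle tumours and treated tumour 3 and between 6.70 and 8.25 in 4 treated tumours.

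How closely the genes varied together was measured for the 45 pairs within the 7 vehicle tumours, where the treatment does not enter. The members were chosen with these tumours in view, so the tests describe the set. In the 36 pairs without Ghrl, Pearson's r was 0.83 to 0.999, and all 36 had an adjusted p under 0.05 in the exact two-sided permutation test (Benjamini-Hochberg over the 45 pairs); with Spearman's rho 34 of 36 did. For Ins1 and Ins2, r was 0.993 (exact permutation p = 0.000198, the smallest that 7 libraries allow; adjusted p = 0.00137) and rho was 1 (exact permutation p = 0.000397). Without vehicle tumours 6 and 7, the farthest from the median of Ins1, r for Ins1 and Ins2 was 0.984. Reads of this pair can be confused, and how far that enters its r was not tested. For Sst and Pyy, the weakest of the 36, r was 0.83 (exact permutation p = 0.021, adjusted p = 0.0263) and rho 0.75 (exact permutation p = 0.0663, adjusted p = 0.0828). Leaving out the 2 tumours farthest from the median of the first gene of a pair left r at 0.553 (Ins1 and Sst) to 0.994 (Ppy and Pyy). A part of some pairs thus rests on those tumours. Pairs with Sst first left out vehicle tumours 3 and 6 and kept 7, and the others of the 36 left out 6 and 7. These r are therefore not all over the same tumours. Without vehicle tumour 6 alone, 29 of the 45 pairs passed.

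Pairs with Ghrl were looser within vehicle tumours. Its 9 pairs had r from 0.456 to 0.656 in vehicle tumours, and 0 of 9 passed (adjusted exact permutation p from 0.135 to 0.309), by Pearson's r or Spearman's rho. For Ins1 and Ghrl r was 0.504 (exact permutation p = 0.252, adjusted p = 0.27) and rho 0.429 (exact permutation p = 0.354), and r was -0.03 without vehicle tumours 6 and 7. The difference between the correlations of Ghrl and those of the other genes was not itself tested.

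With both groups used and each group's mean removed, 42 of 45 pairs passed over the 12 tumours (100000 permutations within groups, two-sided, Benjamini-Hochberg over the pairs; 44 by Spearman's rho). The 36 pairs without Ghrl had r from 0.829 to 0.997 and all passed. Of the 9 pairs with Ghrl 6 passed, with r from 0.301 to 0.577 over the 9. By Spearman's rho, 0.49 to 0.678, 8 of 9 passed. Leaving out 1 tumour moved the count of 42 to between 36 (without treated tumour 3) and 45 (without vehicle tumour 2 or 4). Within treated tumours Ghrl, like the others, was lowest in treated tumour 3 and among the highest in treated tumours 2 and 4. Chga followed Ins2 most closely, at r = 0.997 (permutation p = 2e-05, adjusted p = 6.43e-05; rho = 0.986, permutation p = 5e-05; r = 0.991 without vehicle tumours 6 and 7). The members were chosen with these tumours in view, so these tests describe the set and are no independent evidence that it moves as one.

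**Figure D3:**
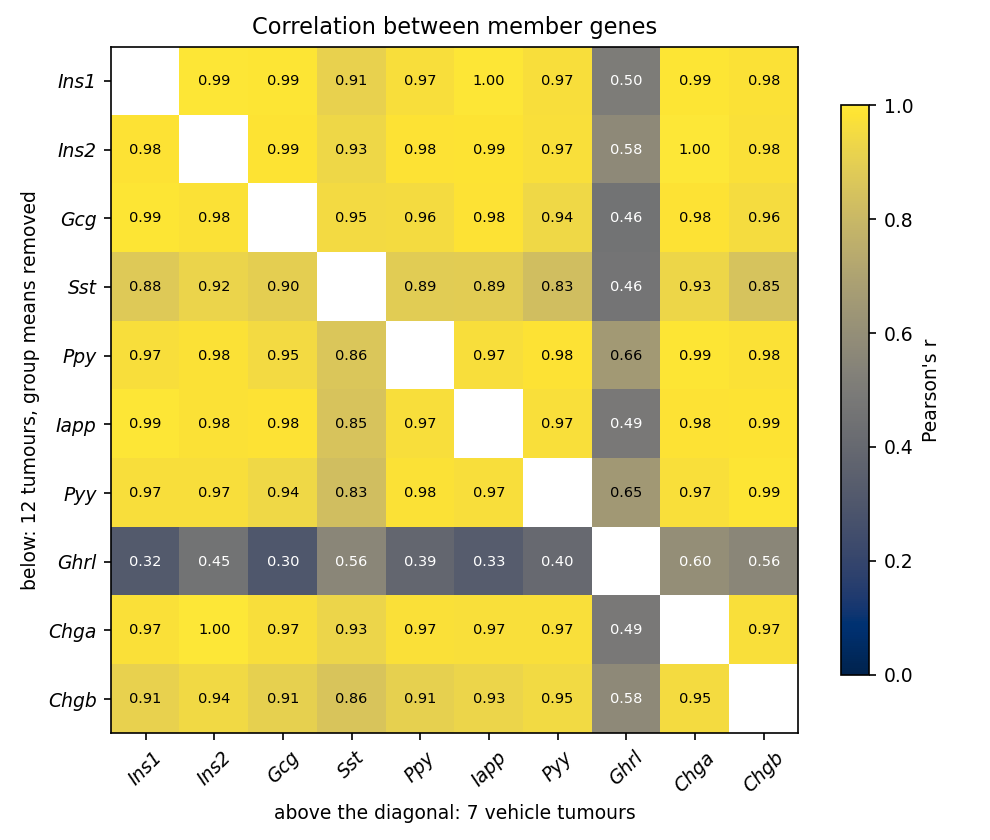
Pearson's r, printed to 2 decimals, for each pair of genes: above the diagonal in 7 vehicle tumours, below it in 12 tumours with group means removed. The row and column of Ghrl are dark, at 0.456 to 0.656 above and 0.301 to 0.577 below, and the other pairs are at 0.829 or more.

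Some pairs of genes kept nearly fixed ratios within treated tumours, as differences of deposited log2 values show, and others did not. These values are named per length by the authors, yet over 13468 protein-coding genes the mean value rose by 0.22 per doubling of exon length, so a ranking of genes is approximate. Ins1 minus Gcg was -0.29 to 0.26 in treated tumours (SD 0.21, n = 5), so the top pair did not differ beyond its spread. In vehicle tumours 6 and 7, Gcg was above Ins1 by 0.83 and 0.66 (Ins1 minus Gcg -0.83 and -0.66). Ins1 exceeded Ppy by 1.63 in treated tumours with an SD of 0.16 (n = 5). Sst varied more: Ins1 minus Sst was 1.69 to 4.15 in treated tumours, largest in treated tumour 3.

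By treated mean the order was Ins1, Gcg, Iapp, Ins2, Ppy, Chgb, Chga, Pyy, Ghrl and Sst. Neighbours separated in 5 of 5 treated tumours were Gcg above Iapp (0.69 ± 0.24, SD of the difference) and Iapp above Ins2 (0.68 ± 0.44). The remaining neighbours changed places between treated tumours. Chgb minus Chga was 0.05 ± 0.78 (SD, n = 5) and Chga minus Pyy 0.03 ± 0.23, both within their spread. Ghrl moved across this order: Ins1 minus Ghrl went from -3.16 in vehicle tumour 4, where Ghrl was the highest of the 10 genes, to 5.15 in vehicle tumour 6.

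Of genes that process and store hormones, 1 of the 13 measured was called higher in treated tumours and 0 lower, where 0.878% of all genes were called higher. The median difference was 1.94, and 10 of 13 were above 0, against 7383 of all 16296 genes. Scg3, for secretogranin III, which helps sort chromogranin A into granules, rose by 3.12 ± 0.73 (SE; limma, adjusted p = 0.0468). It stood at 2.96, 3.26, 1.98, 4.72 and 3.09 in treated tumours 1 to 5 and at 2.70 and 1.75 in vehicle tumours 6 and 7, against -1.54 to -0.32 in the other vehicle tumours. Vehicle tumour 6 thus overlapped the treated group here as well. The call for Scg3 was lost without any one of vehicle tumours 1, 2, 3, 4 and 7 and treated tumours 1, 2, 4 and 5 (limma, adjusted p from 0.056 to 0.14 without each), while the difference stayed at 2.74 or more. Differences that did not pass were 3.35 ± 0.92 (SE; limma, adjusted p = 0.066) for Pcsk2, a prohormone convertase that cuts proglucagon and proinsulin, and 2.84 ± 0.89 (SE; limma, adjusted p = 0.0899) for Pcsk1, its partner. Cpe, the carboxypeptidase that trims the cut hormones, differed the other way by -1.23 ± 0.38 (SE; limma, adjusted p = 0.0863).

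Among genes of beta cell glucose sensing and excitability, 1 of 6 measured was called higher, where 0.878% of all genes were. All 6 differences were above 0 with a median of 2.01. G6pc2, the islet glucose-6-phosphatase subunit, rose by 3.38 ± 0.80 (SE; limma, adjusted p = 0.0493). It was 2.05, 3.33, 2.06, 5.15 and 3.02 in treated tumours 1 to 5 and 2.81 in vehicle tumour 6, and from -2.06 to 0.05 in the other vehicle tumours. Vehicle tumour 7, high in the hormones, was at 0.03 in G6pc2. This call too was lost without any one of vehicle tumours 1, 2, 3, 4 and 7 and treated tumours 2, 4 and 5 (limma, adjusted p from 0.0692 to 0.14 without each).

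Of 16 islet and endocrine transcription factors 10 had a value and 9 were tested, with 0 called in either direction and a median difference of 0.66; 3982 of all 16296 genes had an unadjusted p under 0.05. The nearest were Isl1, a LIM homeodomain factor of all islet cell types (1.69 ± 0.51, SE; limma, adjusted p = 0.0822), and Rfx6 (2.01 ± 0.88, SE; limma, adjusted p = 0.183). Isl1 was 3.22, 3.71, 1.72, 4.08 and 2.80 in treated tumours 1 to 5 and 0.09 to 2.44 in vehicle tumours. Pdx1, a factor of beta cells that pancreatic carcinoma cells also express, differed by -0.18 ± 0.67 (SE; limma, adjusted p = 0.889). Neurod1, Nkx2-2 and Mafa were among the factors without a value.

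**Figure D4:**
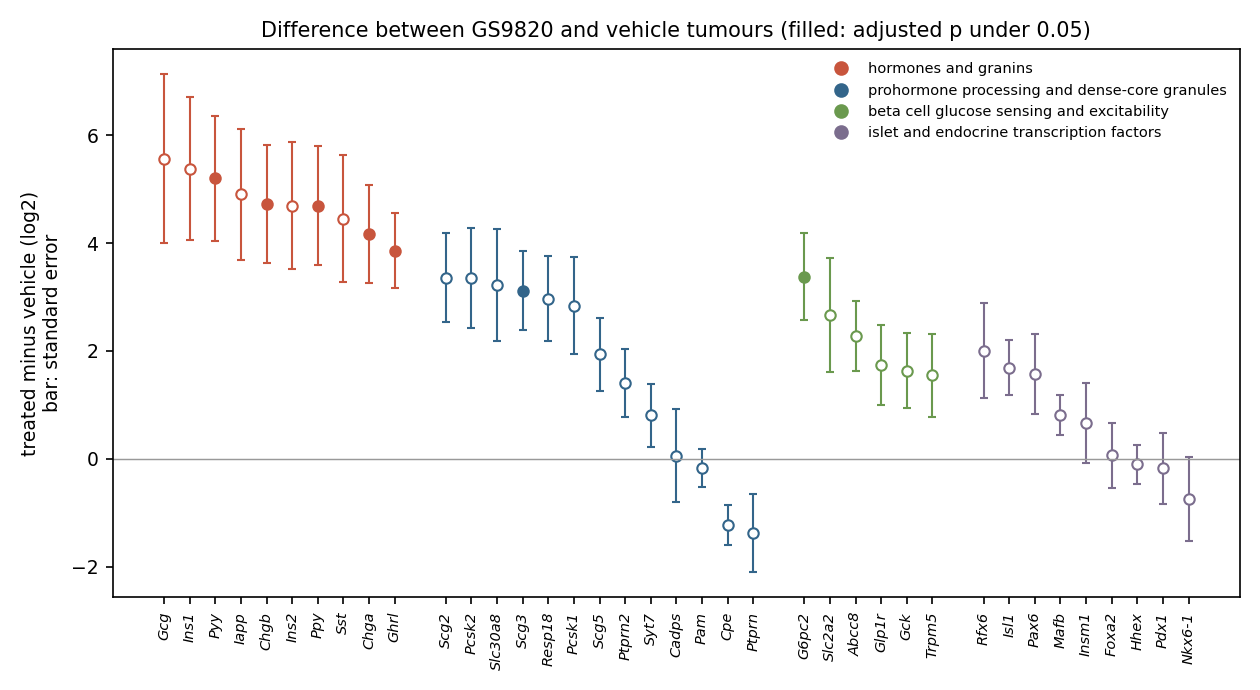
Treated minus vehicle difference of the deposited log2 value with its SE (vertical axis) for the 10 genes and 3 related lists, filled where limma's adjusted p is under 0.05. The 10 hormone and granin differences lie between 3.86 and 5.57; the largest differences of the other lists are 3.38 or less, and 6 genes (Cpe, Ptprn, Pam, Pdx1, Nkx6-1 and Hhex) lie below 0.

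Receptors and partner proteins listed for these hormones were mostly unmeasured, with 5 of 17 given a value. The 5 include Insr and the Ramp genes, which encode partner proteins. Receptor genes for glucagon, somatostatin and ghrelin had no value, nor had Calcr, for the calcitonin receptor. Of the 5 with a value 0 were called higher and 1 lower, where 0.878% and 1.33% of all genes were. The one that passed was Ramp3, a partner protein that turns the calcitonin receptor into an amylin receptor and also pairs with the adrenomedullin receptor. Ramp3 fell by 2.02 ± 0.34 (SE; limma, adjusted p = 0.0189), from 2.55 ± 0.46 (SD, n = 7) to 0.53 ± 0.59 (SD, n = 5). The groups did not overlap, at 1.79 to 3.15 in vehicle and -0.15 to 1.30 in treated tumours, as for 2.81% of all genes in either direction. Without treated tumour 2 or 4 the adjusted p of Ramp3 was 0.0531 or 0.0724 (limma). Insr, the insulin receptor, differed by 0.34 ± 0.17 (SE; limma, adjusted p = 0.251). Among 9 insulin signalling genes 0 were called and the median difference was -0.11, with 0.56 ± 0.24 (SE; limma, adjusted p = 0.176) for Pik3r1, the p85 regulatory subunit of PI3K, and -0.32 ± 0.16 (SE; limma, adjusted p = 0.238) for Akt1.

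Acinar tissue, the main tissue of a healthy pancreas, moved with the hormones in part. All 23 acinar genes were measured, 0 were called, and 23 of 23 differences were above 0, with a median of 2.50. The linear sum of the list lay between 415 and 103047 among vehicle tumours and between 6935 and 79128 among treated ones, and the lowest values of the amylase genes Amy2a5 and Amy2b were 7.68 and 5.77. The list mean was highest in vehicle tumour 6 (10.5) and treated tumours 2 (10.6) and 4 (10.4), where the mean of the 10 hormone and granin genes was 6.83, 8.52 and 9.02. Yet vehicle tumour 2 had an acinar mean of 9.71 with a hormone and granin mean of 1.62, and vehicle tumour 7 an acinar mean of 2.84 with 5.36.

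When the acinar list mean was a covariate in the fit, the differences of the 10 genes were 3.30 ± 0.71 (SE, Ghrl) to 4.78 ± 1.73 (SE, Gcg). In that fit 0 of them and 0 of all genes were called by limma, with 2548 genes at an unadjusted p under 0.05.

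**Figure D5:**
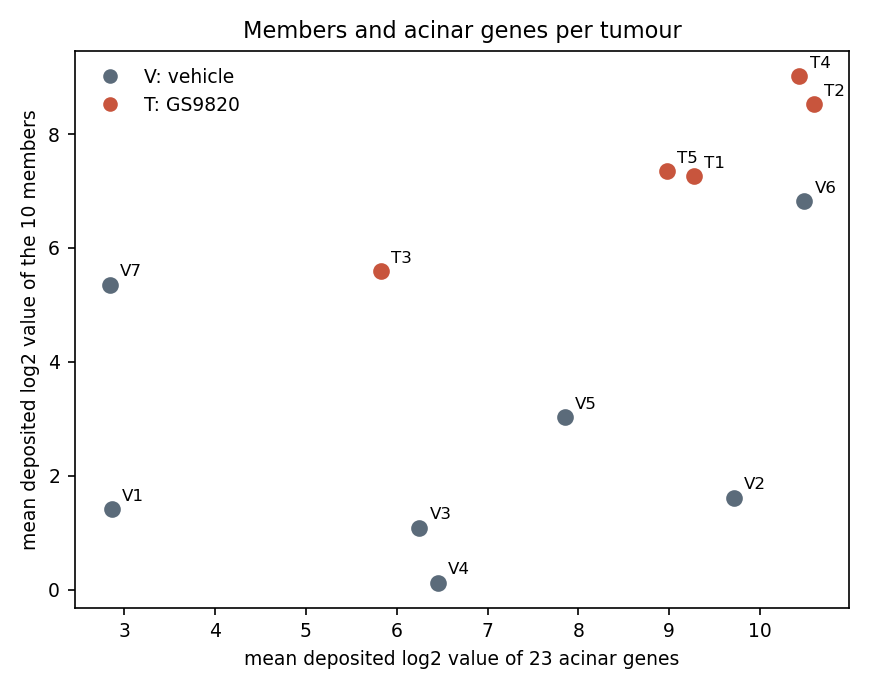
Mean deposited log2 value of the 10 hormone and granin genes (vertical axis) against that of 23 acinar genes (horizontal axis), one point per tumour (V: vehicle, T: GS9820). Vehicle tumour 2 lies low at the right (9.71 and 1.62), and vehicle tumour 7 high at the left (2.84 and 5.36).

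Other tissues were measured beside the hormones, and 0 genes were called in any of these lists. List means in vehicle and treated tumours ran from 3.85 to 8.53 and 6.67 to 8.51 for 15 ductal genes, and from 0.62 to 4.73 and 0.53 to 10.3 for 7 intestinal genes. They ran from -0.09 to 5.53 and 2.47 to 11.6 for 4 hepatocyte genes, from 1.16 to 4.01 and 1.43 to 6.45 for 9 adipocyte genes, and from 3.13 to 3.90 and 1.85 to 3.10 for 3 neuron and glia genes. The intestinal list mean was 10.3, 1.01, 5.28, 0.53 and 0.92 in treated tumours 1 to 5, where the hormone and granin mean was 7.26, 8.52, 5.59, 9.02 and 7.35. The most abundant genes of these lists were Vil1 (vehicle 5.84 ± 1.95, treated 7.01 ± 2.18) and Fabp1 (2.18 ± 1.43, 3.99 ± 5.75) for intestine and Ttr (3.81 ± 2.28, 6.40 ± 2.37) and Serpina1a (2.04 ± 2.55, 5.69 ± 3.99) for hepatocytes. For adipocytes they were Pnpla2 (5.67 ± 0.37, 6.12 ± 0.56) and Fabp4 (5.06 ± 1.37, 6.65 ± 0.66), and for neurons and glia S100b (3.67 ± 1.39, 3.19 ± 0.49) and Tubb3 (3.83 ± 1.15, 2.64 ± 0.87), as mean and SD of 7 vehicle and 5 treated tumours. Of 10 other gut endocrine genes (Cck, Sct, Gip, Nts and Gast among them) Tph1 alone had a value, with a difference of 0.88 ± 0.75 (SE; limma, adjusted p = 0.496). The part of ductal, intestinal, hepatocyte, adipocyte and neural markers in the hormone differences was not tested.

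Single libraries decided how many of the 10 genes were called, though not the direction. Over 12 fits that each left out a library, the differences ran from 3.46 (Ghrl, without treated tumour 2) to 6.56 (Gcg, without vehicle tumour 6), all above 0. The number called was 10 without vehicle tumour 6 and 9 without vehicle tumour 5. For all 16296 genes the number called higher moved as well, from 143 in the fit of all 12 tumours to 191 without vehicle tumour 6 and 498 without vehicle tumour 5. The count among the 10 was 0 without any one of vehicle tumour 4 and treated tumours 2 and 4, 1 without vehicle tumour 1, 2 or 3 or treated tumour 5, and 2 without treated tumour 1; over all genes these fits called 0 (without treated tumour 4) to 169 (without treated tumour 1) higher. With vehicle tumour 7 left out 4 were called, and 7 without treated tumour 3, the library rich in hepatocyte genes. Over all genes these fits called 73 and 178 higher.

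The genes outside the set whose values were most like its mean, by Pearson's r of deviations over the 12 tumours with group means removed, were led by hormone processing genes. Pcsk2 had r = 0.976, Scg3 0.944, the zinc transporter gene Slc30a8, which loads zinc into insulin granules, 0.942, and Scg2, for secretogranin II, 0.915. Pcsk2os1, listed as antisense to Pcsk2, had r = 0.957, and the strand setting of the counting is not given in the sources used here. Scgn, for the islet calcium-binding protein secretagogin, had r = 0.944 and Rimbp2, for a protein of the release site, 0.908. The extracellular matrix genes Abi3bp and Col6a6 (0.927 and 0.921) and Arhgap8 (0.924) made up the rest of the first 10. Levels of these genes differed widely, from a vehicle mean of -2.003 for Rimbp2 to 3.91 for Abi3bp.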

How the data were processed

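Expression in 12 tumour libraries was analysed from the deposited files; nothing was aligned or counted anew. The authors deposited log2 values named log2 RPKM, 1 file per library. Per the submitters' processing notes, TopHat2, STAR, limma and mm10 were used, without versions or the step each served. Per the labels' protocols, libraries were stranded, depleted of ribosomal RNA and read as paired ends of 100 bases in 1 lane. All libraries have nearly 1 distribution, with linear sums of 1552390 to 1552450, so depth is unknown and counts could not be recovered.

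Symbols and positions came from GENCODE M21 (GRCm38, the assembly mm10), which matched 16039 of 16322 identifiers. Genes at 0 or more in at least 5 libraries were kept (16296, with all 10 members). Treated and vehicle tumours were compared with limma 3.58.1 (mean trend, two-sided, R 4.3.3), with Benjamini-Hochberg adjustment over all kept genes and a threshold of 0.05. Correlations used exact permutation of 7 libraries or 100000 permutations within groups (Python 3.11.15, scipy 1.17.1). The scripts were tested on simulated data.

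Members, 12 other gene lists and tests were chosen with earlier results of these data known. Named are all members, up to 4 called genes of each pathway list or else the 2 of smallest p, the 2 highest markers of each cell type and the 10 genes most like the members. Other list genes in the text (Pcsk1, Pcsk2, Cpe, Ptprn, Pam, Pdx1, Nkx6-1, Hhex, Insr, Fabp2) were chosen after their values were seen. Alternatives were other filters, scales, normalizations, variance models and weights, an acinar covariate, a replicate block and each library left out.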

Additional observations from a re-analysis of the deposited data

Results flagged for a closer look

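A library apart from the rest of its group was looked for in 42 groups of values by Dixon's test, which by chance flags about 1 in 20. Of the 20 groups formed by the 10 hormone and granin genes, 0 were flagged, although Ghrl in treated tumour 3 and the other hormones in vehicle tumours 6 and 7 stood off visibly.

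The 4 flagged values were means of other lists. Treated tumour 3 had a hepatocyte list mean of 11.6 against 2.47 to 4.66 in the other treated tumours. Among treated tumours the same library had the highest insulin signalling list mean, 6.26 against 5.86 to 5.96, inside the vehicle range of 5.79 to 6.32. Vehicle tumour 4 had a hepatocyte list mean of 5.53 against -0.09 to 1.71 in the other vehicle tumours. Vehicle tumour 1 had a ductal list mean of 3.85 against 6.94 to 8.53.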

How the results depend on the processing

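The 10 differences were above 0 in all 22 alternatives run, with a median of 4.21 (acinar covariate) to 6.12 (replicate block) against 4.71. Some of these settings are no test of the direction. Other filters and variance models leave a difference unchanged by design. Median centring and quantile normalization hardly alter libraries that already share nearly 1 distribution. The number of calls did depend on the processing. Of all genes 359 were called; array quality weights gave 2764, the acinar covariate 0, and leaving out 1 library 0 (without treated tumour 4) to 1693 (without vehicle tumour 5). Calls fell to 179 without vehicle tumour 1, 97 without vehicle tumour 2, 112 without vehicle tumour 3, 68 without vehicle tumour 4, and 123 without vehicle tumour 7, and to 31 or 122 when treated tumour 2 or 5 was left out. Of the 10 hormone and granin genes 5 were called; array quality weights gave 9, the acinar covariate 0, and leaving out 1 library 0 to 10. The cause was not tested. Vehicle and treated tumours share the numbers 1 to 5, and deviations of same-numbered tumours had r from -0.18 to 0.26. For numbers 2 and 3 this r (0.2 and 0.263) was the highest over the treated tumours, and for 1, 4 and 5 it was not. So few values cannot tell whether the numbers pair the tumours, and the labels do not say. With the replicate block 166 genes and 9 of the 10 were called. In that fit vehicle tumours 6 and 7, whose numbers no treated tumour has, do not enter the difference. They are the vehicle tumours highest in the hormones other than Ghrl. The block, with its median of 6.12, thus changes the set of tumours as well as the pairing. Scg3 lost its call in 10 of 22 alternatives, G6pc2 in 12 and Ramp3 in 4. Counts of pairs varying together stayed within 1.5 times of 36 and 42, at 29 to 37 and 36 to 45. Depth is unknown, so precision at low values cannot be given.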

Other observations

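Because Ghrl was not high in vehicle tumours 6 and 7, where the other hormones were, the genes most like it were listed by the same measure, a choice made after its values were seen. Over the 12 tumours with group means removed, the highest Pearson's r were 0.923 for Scn2b, a sodium channel beta subunit, 0.891 for Limk2, a kinase of the actin cytoskeleton, and 0.887 for the zinc finger gene Zkscan6. The group means of Scn2b were close, at 1.49 ± 0.38 (SD, n = 7) for vehicle against 1.59 ± 1.19 (SD, n = 5) for treated tumours. Hmcn2 (r = 0.848) was the one of the first 10 with group means far apart, 1.61 ± 0.71 (SD, n = 7) and 4.28 ± 1.66 (SD, n = 5). Of the prohormone processing and granule genes 0 were among these 10, but only 13 of all 16322 genes are on that list, so this count says little. Ghrl lay farthest from its group mean in treated tumour 3, at 3.13 against a treated mean of 6.64. How far these r rest on that library was not tested. These values are a description over 12 libraries.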
